A study of Caenorhabditis elegans with 4 samples.

Results

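The genes described here are 10 that encode the DREAM complex of *Caenorhabditis elegans* or other class B synthetic multivulva (synMuv B) regulators: lin-35, efl-1, dpl-1, lin-9, lin-37, lin-52, lin-53, lin-54, lin-15B and lin-36. They were taken by name from a table of 19971 protein-coding genes on the 6 nuclear chromosomes, and all 10 were found. The study mapped HPL-2, a worm heterochromatin protein 1 homologue, by chromatin immunoprecipitation and sequencing (ChIP-seq). It holds 2 HPL-2 ChIP libraries, made with a rabbit polyclonal antibody to HPL-2 (SDQ2340, affinity-purified), and 2 input libraries without precipitation. All 4 libraries came from wild-type N2 worms at the L3 larval stage, a mixed population of males and hermaphrodites at 20 °C, so there was 1 genotype, 1 stage and no treatment. Crosslinking was the same for all 4, with EGS for 20 min and with EGS and formaldehyde for 10 min. Whole larvae were used, and a peak therefore pools all tissues. Values exist here for the ChIP libraries: a list of 20533 peaks for replicate 1, a list of 16490 for replicate 2, and a series-level list of 23530. The input libraries were not analysed here, and read depth is unknown from peak lists.

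DREAM is a transcriptional repressor complex conserved between worms and mammals. It joins a retinoblastoma-like pocket protein and an E2F/DP heterodimer to the MuvB core, which contacts DNA at promoters. In *C. elegans* it represses cell cycle genes and keeps germline genes silent in somatic cells. The synMuv B genes were found through the extra vulvae that form when they are lost together with a class A gene. The gene hpl-2 belongs to the same class B, so the present data place one synMuv B protein on the genes of others.

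HPL-2 peaks were found at 9 of the 10 genes. A peak counted for a gene when it overlapped the gene body or the 1 kb on either side by at least 1 bp, with 150 bp of padding because genes were located on WBcel235 and peaks on WS220. In the series-level list 9 of 10 genes had a peak, against 48.5% of all protein-coding genes. Replicate 1 gave 9 of 10, against 43.5%, and replicate 2 gave 7 of 10, against 36.8%. Peaks of both replicate lists were present at 7 of 10 genes, lin-35, efl-1, lin-9, lin-53, lin-54, lin-15B and lin-36, against 29.9% of all protein-coding genes. The genes dpl-1 and lin-52 had a peak in replicate 1 and none in replicate 2, and lin-37 had none in any list. With 2 ChIP libraries of 1 condition no test was available, and these shares are descriptions.

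The same shares were set beside genes of like position and genes within the same range of length. Peaks are sparser in the centre of chromosomes (the middle of 3 equal parts) than on the arms, and 6 of the 10 genes lie in centres. In centres, 5 of these 6 had a series-level peak, against 35.9% of protein-coding genes there, and 4 of 6 had peaks in both replicate lists, against 15.4%. On the arms, all 4 had a series-level peak, against 56.1%, and 3 of 4 had peaks in both replicate lists, against 38.7%. The 10 genes were longer than the typical gene, with a median of 3276 bp against 2006 bp, and a longer gene has a wider window. Among protein-coding genes within their range of length, 46.6% had a series-level peak and 27.2% had peaks in both lists. Among those of that range in centres, the shares were 34.5% and 13.4%. The median length in this range was 2053 bp, and 2027 bp in centres. The wider windows of the 10 genes were therefore not matched.

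**Figure D1:**
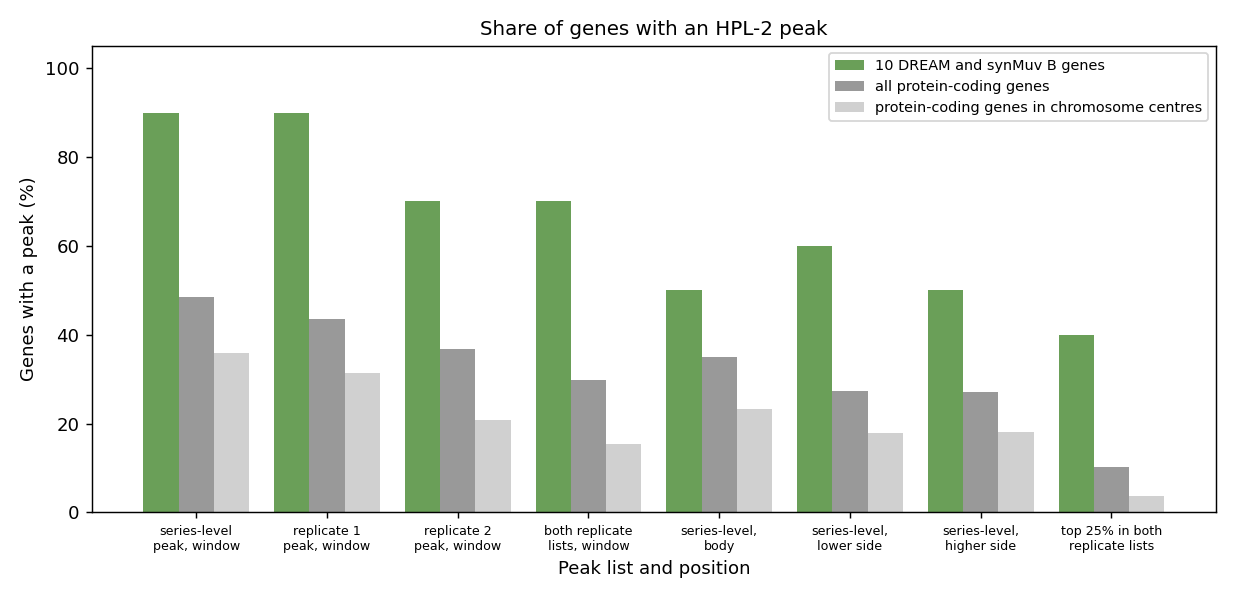
Share of genes with an HPL-2 peak (y axis, percent of genes) by peak list and position (x axis), for the 10 DREAM and synMuv B genes (green), all protein-coding genes (dark grey) and protein-coding genes in chromosome centres (light grey). The bars of the 10 genes stand at 40 to 90% and are the highest at each position, at 90% against 48.5% and 35.9% for a series-level peak in the window.

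The base pairs under peaks differed less from those of all protein-coding genes than the share of genes with a peak did. The 21 series-level peaks in the 10 windows were 146 to 691 bp wide, with a median of 278 bp against 259 bp for the whole list. Summed over the 10 windows, they covered 10.2% of the base pairs, against 9.72% for the windows of all protein-coding genes. For genes within the same range of length the value was 7.86%, for genes on arms 12.6%, for genes in centres 4.56%, and for genes of that range in centres 3.89%. The value for the 10 genes pools 6 in centres and 4 on arms, so it has no like match among the values by part. Replicate 1 peaks covered 9.65% of the 10 windows, against 8.36% of those of all protein-coding genes. Replicate 2 peaks covered 4.94% of the 10 windows, against 5.26%. The median gene of the 10 had 9.08% of its window under series-level peaks, against 0% for the median of all protein-coding genes.

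The share of peaks found in both replicates was set beside that of the whole list. With 21 peaks, several from the same gene, it is a description and sets no difference apart. Of the 21 series-level peaks, 12 (57.1%) overlapped a peak of each replicate list, against 43.5% of the 23530 peaks of the list. Another 8 were found in replicate 1 only, 1 in neither and 0 in replicate 2 only. In the whole list these shares were 39.1%, 9.23% and 8.16%. For the 12 found in both, the replicate peaks were centred a median of 9 bp apart. Only 1 pair, beside lin-9, was more than 50 bp apart, at 166.5 bp.

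**Figure D2:**
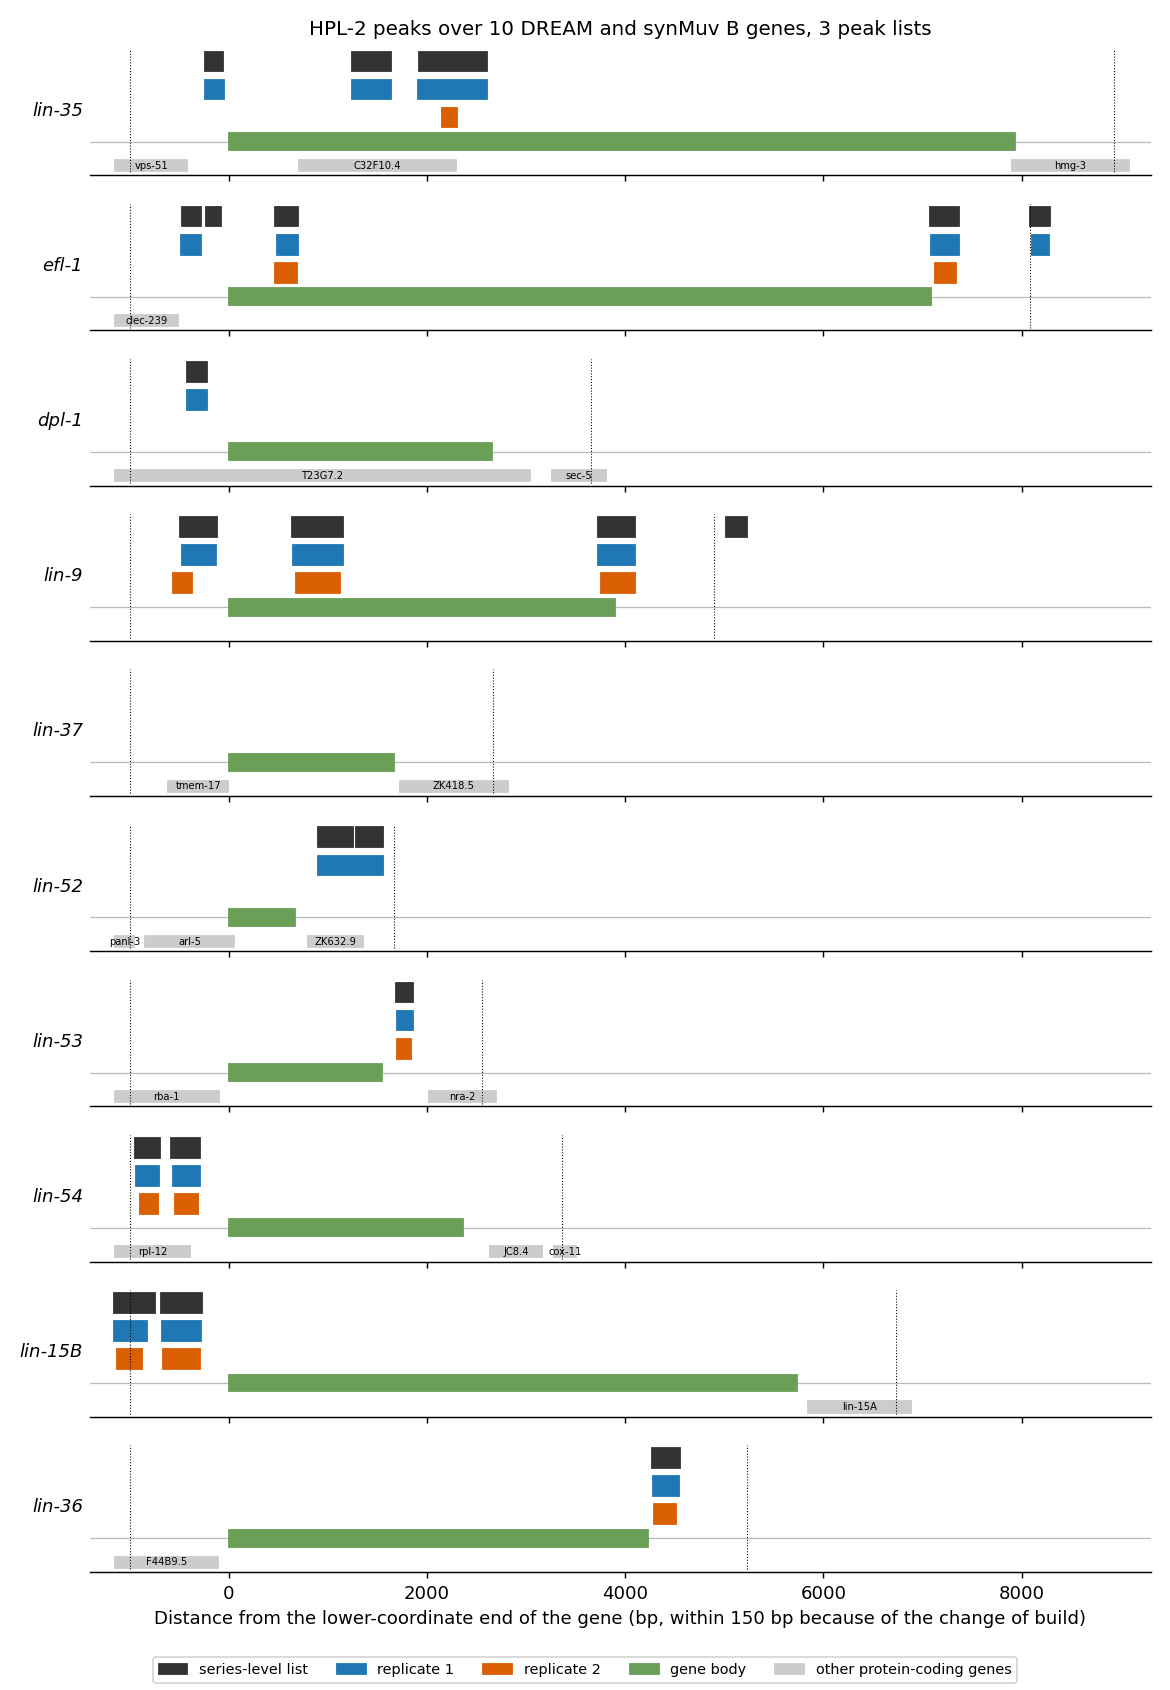
Map of the HPL-2 peaks over each gene, with distance in bp from the gene's lower-coordinate end on the x axis and 1 panel per gene. Boxes are peaks of the series-level list (black), replicate 1 (blue) and replicate 2 (orange) above the gene body (green) and other protein-coding genes (grey), and dotted lines mark 1 kb beyond each end. Peaks stand at or beyond the ends of most genes, lie inside the bodies of lin-35, efl-1 and lin-9, and are missing from the lin-37 panel.

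Most of the peaks lay at the ends of the genes or beside them. The gene table gives no strand, so an end is named here by its coordinate, lower or higher, and promoter and 3′ end are not told apart. Of the 21 series-level peaks, 6 lay on the lower-coordinate side, 4 on the higher-coordinate side and 4 inside a body, at every shift of up to 150 bp between the builds. A further 1 spanned an end at every such shift, and 6 lay so close to an end that their side depended on the shift. Counted by gene, 6 of 10 had a peak on the lower-coordinate side (27.4% of all protein-coding genes) and 5 on the higher-coordinate side (27.1%). The lower-side count was 3 of 10 in replicate 2. A peak over the body or within 150 bp of it was present at 5 of 10 genes (35% of all protein-coding genes), and at 3 of 10, lin-35, efl-1 and lin-9, without the padding. Peaks centred within 500 bp of an end made up 12 of 21 (57.1%), a measure chosen after the positions were seen. Over all protein-coding genes this was 8867 of 27267 pairs of gene and peak (32.5%), and 40.2% for genes within the same range of length.

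Several of these peaks cannot be given to one gene. Worm genes are closely packed, and 10 of the 21 series-level peaks also lay over another annotated gene. For 9 of the 21, an end of another protein-coding gene was nearer to the centre of the peak than either end of the DREAM or synMuv B gene. Neither count was made over all protein-coding genes, so they do not set these genes apart. A peak that was found in both replicate lists and was nearest to the gene's own end was present at 5 genes: lin-9, lin-53, efl-1, lin-15B and lin-36. For lin-53 this is not settled, because nra-2 is nearly as close and the margin is well within the uncertainty of the builds. Only ends of protein-coding genes were compared. The lin-36 peak also lies over the noncoding RNA gene F44B9.11, whose ends were not considered. The count of 5 genes was likewise not made over all protein-coding genes, so no share stands beside it.

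The pocket protein gene lin-35 (C32F10.2, chromosome I) encodes the worm retinoblastoma homologue. It had 3 series-level peaks and 3 in replicate 1, against 1 in replicate 2. The first, from 5807471 to 5807652, stood about 57 bp beyond the lower-coordinate end, in the gap of about 417 bp that separates lin-35 from vps-51. Replicate 1 had it at a score of 13.8, above 59.3% of the peaks of that list, and replicate 2 had no peak there. The others, from 5808953 to 5809348 and from 5809626 to 5810316 (691 bp, the widest of the 21), lay inside the body, where the separate gene C32F10.4 is nested. Replicate 2 had a single peak of 150 bp inside the wider of them, with a low rank, above 14.6% of its list. The lin-35 window was therefore unevenly covered, with 12.9% of its base pairs in replicate 1 and 1.51% in replicate 2.

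The gene efl-1 (Y102A5C.18, chromosome V) encodes the E2F transcription factor of the complex, and had the most series-level peaks of the 10. Its 5 series-level peaks stood as groups at its ends, and the interior of this 7086 bp gene was empty between them. At the higher-coordinate end, the peak from 16965669 to 16965960 scored 45.05 in replicate 1 and 50.18 in replicate 2, above 91.7% and 91.4% of the peaks of these lists. Near the lower-coordinate end and inside the body, the peak from 16959058 to 16959286 ranked above 75.6% of replicate 1 and 68.4% of replicate 2 peaks. The remaining 3 were weaker and were not in replicate 2. The peaks from 16958114 to 16958309 and from 16958364 to 16958509 lay between efl-1 and clec-239, a C-type lectin gene. The one from 16958364 to 16958509 was in neither replicate list. A peak from 16966676 to 16966871, over the end of the F-box gene fbxa-90, entered the window by the padding alone.

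The DP subunit, which pairs with E2F to bind DNA, is encoded by dpl-1 (T23G7.1, chromosome II). It had 1 series-level peak, from 9169489 to 9169686, about 224 bp beyond its lower-coordinate end. Replicate 1 had the peak from 9169488 to 9169685 at a score of 18.16, above 68.5% of its list. Replicate 2 had none, and its nearest peak was 15743 bp from the gene body. The gene T23G7.2 spans both dpl-1 and this peak. Of the 3 genes for the pocket protein and the E2F/DP pair, efl-1 alone had a peak that ranked in the top 25% of both replicate lists.

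Among the 5 genes of the MuvB core, lin-9 had the highest mean share of its window under replicate peaks and lin-37 had no peak. In replicate 1 and the series-level list the share was higher at lin-52, which had no replicate 2 peak. The gene lin-9 (ZK637.7, chromosome III) encodes a core scaffold subunit. Its window was covered to 20.5% in replicate 1 and 16.6% in replicate 2, a mean of 18.6 ± 2.78% (SD, n = 2). Its series-level value of 21.4% was above that of 87.6% of protein-coding genes. The peak from 8903957 to 8904339, across the higher-coordinate end, scored 68.31 in replicate 1 and 105.38 in replicate 2, above 97.8% and 97.2% of these lists. The peak inside the body, from 8900872 to 8901386 (515 bp), scored 61.79 and 78.38 in the same replicates, above 96.4% and 95.5%. Both peaks were thus near the top of each list. A peak on the lower-coordinate side, from 8899749 to 8900114, ranked lower, above 51.9% of replicate 1 peaks. The replicate 2 peak that overlapped it ranked above 13.3% of its list. No protein-coding gene shares the 1 kb on either side of lin-9, and the nearest, unc-32 on the higher side, is about 1483 bp away. A last peak, from 8905256 to 8905468, entered by the padding alone.

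The gene lin-37 (ZK418.4, chromosome III) encodes a MuvB subunit needed for repression in mammals. It was the 1 gene of the 10 with no peak in its window. The nearest peak stood 1466 bp from the gene body in the series-level list and in replicate 1, and 2003 bp in replicate 2. Its neighbours are very close, with gaps of about 4 bp to tmem-17 and 60 bp to ZK418.5. The absence of a peak from these lists does not show absence of HPL-2, since their thresholds are unknown.

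The gene lin-52 (ZK632.13, chromosome III) encodes a small subunit that links the pocket protein to MuvB, and at 668 bp it is the shortest of the 10. Its peaks lay over the next gene. The series-level peaks from 9824987 to 9825332 and from 9825371 to 9825637 both overlapped ZK632.9, and replicate 1 had 1 peak of 657 bp in their place. Its score of 4.21 was above 13.7% of the replicate 1 list, and replicate 2 had no peak nearer than 4931 bp. The share of the window under peaks, 24.6% in replicate 1 and 0% in replicate 2, rests on the small window and on this 1 weak peak.

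The gene lin-53 (K07A1.12, chromosome I) encodes a histone-binding protein of the RbAp46/48 family that also belongs to other chromatin complexes. It had 1 narrow peak in each list. The series-level peak ran from 9619899 to 9620072 (174 bp), in the gap of about 466 bp between lin-53 and nra-2, with its centre about 226 bp from the end of lin-53 and 242 bp from that of nra-2. The replicate peaks were 167 and 151 bp wide and centred 10 bp apart. They ranked above 70.5% of replicate 1 and 47.8% of replicate 2 peaks. On its other side lin-53 adjoins its paralogue rba-1, and no peak stood there.

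The DNA-binding subunit gene lin-54 (JC8.6, chromosome IV) had 2 peaks on its lower-coordinate side, both of them shared by the replicates. The stronger, from 13240465 to 13240751, scored 40.63 in replicate 1 and 17.15 in replicate 2, above 89.6% and 70.6% of the lists. The weaker, from 13240100 to 13240353, ranked above 14.4% and 31.4%. Both overlapped rpl-12, a ribosomal protein gene, and the centre of the stronger was about 43 bp from its end, against 436 bp from the end of lin-54. The body of lin-54 had no peak in any list.

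**Figure D3:**
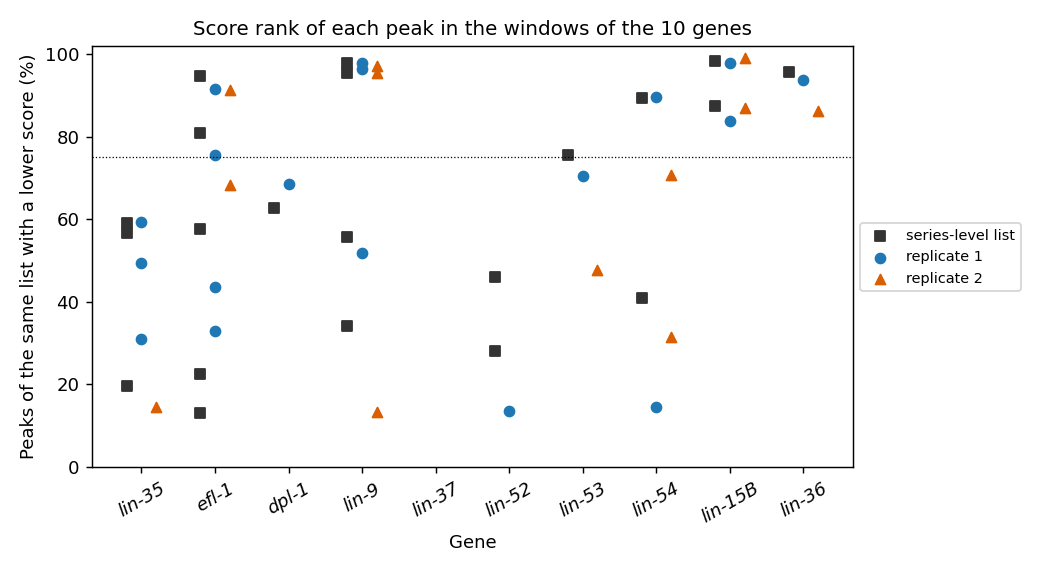
Score rank of every peak in the windows of the 10 genes, as the percent of peaks in the same list with a lower score (y axis), by gene (x axis), for the series-level list (squares), replicate 1 (circles) and replicate 2 (triangles). The dotted line marks the top 25% of a list. Peaks of lin-9, lin-15B, lin-36 and efl-1 stand above it in both replicates, up to 99.0% for lin-15B in replicate 2. The ranks of lin-52, lin-35 and dpl-1 stay below it. A peak of lin-53 passes it in the series-level list alone, and a peak of lin-54 in that list and replicate 1.

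The remaining genes encode THAP-domain proteins, a class of zinc-finger factors, and each had a strong peak beside an otherwise empty body. The gene lin-15B (ZK662.4, chromosome X) is a repressor of germline genes in somatic cells. Its highest peak, from 15725442 to 15725855, scored 69.09 in replicate 1 and 160.57 in replicate 2, above 98.0% and 99.0% of the peaks of these lists. No other peak in the 10 windows ranked higher in any of the 3 lists. A companion peak from 15724969 to 15725384 ranked above 83.8% of replicate 1 and 87.0% of replicate 2 peaks. Both lay on the lower-coordinate side, about 274 and 745 bp from the body, over no annotated gene. The gene lin-15A adjoins lin-15B on the higher-coordinate side, at about 106 bp, and lin-15B is known as the upstream gene of this operon. The peaks therefore lie on the side away from lin-15A. The replicate peaks were centred 1 bp apart at the stronger site and 7 bp apart at the weaker.

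The gene lin-36 (F44B9.6, chromosome III) acts with DREAM in vulval development. Its single peak, from 8020921 to 8021198 (278 bp), began about 48 bp beyond the higher-coordinate end. It scored 50.96 in replicate 1 and 34.16 in replicate 2, above 93.7% and 86.2% of the lists, and the replicate peaks were centred 9.5 bp apart. The noncoding RNA gene F44B9.11 lies under it, and the nearest protein-coding gene on that side is about 1589 bp from lin-36. The body and the lower-coordinate side, where F44B9.5 is about 109 bp away, had no peak.

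High ranks were more frequent at these genes than at protein-coding genes in general. A peak in the top 25% of scores of the series-level list was present at 6 of 10 genes, against 20.3%. Among protein-coding genes within the same range of length the share was 18.3%. Of the 6, lin-53 passed narrowly, above 75.5% of the list, and was below the top 25% in both replicate lists. The peak counted for lin-54 was nearer to an end of rpl-12. A peak in the top 25% of each replicate list was present at 4 of 10, efl-1, lin-9, lin-15B and lin-36, against 10.2%. Among protein-coding genes within the same range of length the share was 8.41%. In centres such a peak was present at 2 of 6, lin-9 and lin-36, against 3.58%. The score was used as a rank within its list, because its scale is not stated.

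The share of a window under peaks differed between the replicates for most genes. Replicate 1 covered more than replicate 2 at 9 of the 10 genes, and lin-37 had 0 in both. The gap was small for lin-53 (4.48 ± 0.319%, SD, n = 2), lin-36 (3.96 ± 0.511%) and lin-15B (6.94 ± 0.777%). It was larger for lin-54 (10.7 ± 1.57%) and efl-1 (6.26 ± 2.03%). For lin-35 (7.19 ± 8.03%) the SD exceeded the mean. It also did for lin-52 (12.3 ± 17.4%) and dpl-1 (2.13 ± 3.01%), where it had to, because replicate 2 had 0 and n = 2. The replicate 2 list is shorter as a whole, with 5.44 Mb under peaks against 8.50 Mb in replicate 1.

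**Figure D4:**
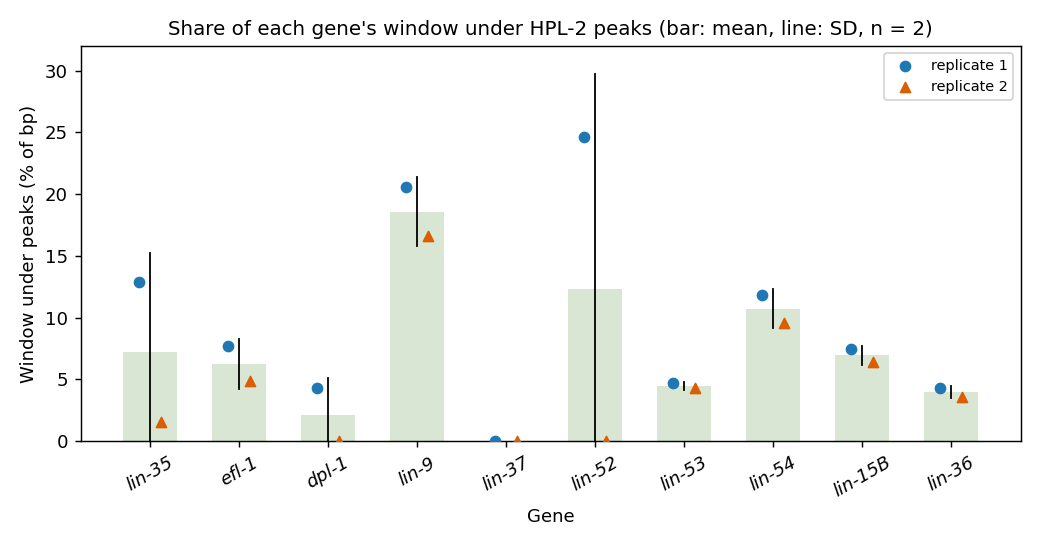
Share of each gene's window, the body plus 1 kb on either side, under HPL-2 peaks (y axis, percent of base pairs) by gene (x axis), with replicate 1 as circles, replicate 2 as triangles, the mean as a bar and the SD (n = 2) as a line that is cut off at 0. The genes lin-9 and lin-54 have the highest means among those with peaks in both replicates, at 18.6 and 10.7%, and lin-52 has 24.6% in replicate 1 and 0% in replicate 2.

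Other genes of the same genetic pathway also had HPL-2 peaks. Their counts stand against 48.5% of all protein-coding genes with a series-level peak and 29.9% with peaks in both replicate lists, and against 56.1% and 38.7% on the arms. Of 11 further synMuv B genes, 10 had a series-level peak and 6 had peaks in both replicate lists, and met-2, a histone H3 methyltransferase gene, had none. The gene smo-1, for the modifier SUMO, had 60.9% of its window under series-level peaks, lin-65 had 38.5% and mep-1, a zinc-finger protein gene, 31.4%. All 4 synMuv A genes had a series-level peak and 3 had peaks in both replicates. The lin-15A peak entered by the padding alone and ranked above 14.7% of the series-level list. Neither replicate list had a peak in the lin-15A window. Among them lin-8 was covered to 65.8%, lin-56 to 24.7% and lin-38 to 14.5%. Of the 4 synMuv C genes, which encode subunits of a TIP60-like acetyltransferase complex, 3 had a series-level peak and 2 had peaks in both. The gene epc-1 was covered to 80.5% and ssl-1 to 18.8%. Of 7 cell cycle partners of DREAM, all had a series-level peak and 5 had peaks in both lists. The E2F gene efl-2 was covered to 41.6%, the cyclin-dependent kinase gene cdk-2 to 17.7% and the cyclin D gene cyd-1 to 16.0%. In the 10 DREAM and synMuv B genes the series-level share reached at most 23.0%, at lin-52. High ranks were not particular to these 10 genes. A peak in the top 25% of each replicate list was present at 2 of 4 synMuv A and 2 of 4 synMuv C genes. It was present at 2 of 7 cell cycle partners and 2 of 11 further synMuv B genes, against 10.2% of all protein-coding genes and 14.2% on arms. The genes named here were taken as the most covered of their lists, and 10 of these 11 lie on arms, where peaks are denser.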

How the data were processed

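The authors deposited 3 HPL-2 peak lists, 1 per ChIP library and 1 for the series. Per the file headers, positions refer to WormBase WS220 and peaks were called with MACS. The submitters' processing notes name BWA and ce10. The threshold, control library and combination of replicates are not given in the sources used. Each deposited peak carries a score of unstated scale, used only as a rank within its list. Other deposited values are peak starts and ends in bp.

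Genes came from a RefSeq table on WBcel235 without strand, so no promoter or 3′ end was assigned, no motif was searched and none of its coordinates is given. Distances to genes are uncertain by up to 150 bp, the padding used. Overlap of 1 bp counted. The share of a window under peaks used no padding. Libraries were grouped by title. Whether the replicates came from separate cultures is not stated, so their SD may be technical. No test could be made with 2 libraries of 1 condition. Chromosome length was the largest end over the lists, and a gene's part was set by its midpoint.

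The genes, lists and measures were chosen with earlier results of these data known. All 10 genes are described. From each further list, up to 3 genes are named by share of window covered, among those with peaks in both replicate lists. A neighbour is named where its end is nearer to a peak. Other neighbours were named after their positions were seen. In a check on simulated peaks over 19971 genes, 200 of 200 planted genes were recovered. Python 3.11.15, numpy 2.4.6 and pandas 2.3.3 were used.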

Additional observations from a re-analysis of the deposited data

How the results depend on the processing

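Of 54 alternative settings over 7 results, 45 left a count within 1.5 times its reported value or moved a share by less than the SD between replicates. Some of them could not move. The flank does not enter the count of body peaks, and a count of 9 of 10 cannot rise by 1.5 times. For the share of the windows under peaks that SD was wide, at 3.33 percentage points. The count of genes with a body peak, 5, was 3 without padding, 9 with 300 bp of padding, and 3 when the peak midpoint had to lie within the padded body, so it depends on the padding. The measures of side and of distance to an end were chosen after seeing the data. The lower-side count, 6, was 3 with peaks found in both replicate lists and 3 to 6 with a single replicate list. The share of the 10 windows under peaks, 10.2%, was 5.33% for bodies alone and 4.94 to 9.65% with a single replicate list. The share of peaks near an end was 28.6% within 250 bp and 81.0% within 1 kb. Over all protein-coding genes these shares were 15.6% and 57.2%. For genes within the same range of length they were 18.8% and 70.7%. Genes with a series-level peak numbered 7 to 10 and genes with peaks in both lists 5 to 8 over their settings. No paired analysis was possible because values of 1 group only, the ChIP libraries, were analysed. The planned promoter and 3′ end settings were not run, because the gene table has no strand. Read depth is unknown, and every count is limited to peaks above an unknown threshold.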
